A study of Mus musculus with 20 samples.

Results

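The small leucine-rich proteoglycans are secreted matrix proteins built from leucine-rich repeats, most of which carry glycosaminoglycan side chains. They bind collagen fibrils in the wall of the aorta and set fibril diameter and spacing, and several also bind growth factors or cell surface receptors. *Islr* (immunoglobulin superfamily containing leucine-rich repeat, also called meflin) encodes a leucine-rich repeat protein anchored at the cell surface and is known as a marker of mesenchymal stromal cells. The 10 genes described here, out of 43422 in the data, are 9 proteoglycan genes (*Dcn*, *Bgn*, *Aspn*, *Fmod*, *Lum*, *Prelp*, *Omd*, *Ogn* and *Podn*) and *Islr*. The 9 were taken as members of the family with results of these data known. *Islr* was chosen by its measured values, as one of the largest decreases under angiotensin II (Ang II) in knockout mice. Its values in any comparison with a knockout group are therefore a description with no test, and it is kept out of the counts of members.

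RNA was sequenced from the whole abdominal aorta of 20 C57BL/6 mice, 5 in each of 4 groups, and the study's methods give the background as C57Bl/6NCrl. Wild-type (WT) and *Plod1*-/- mice were infused with saline, or with Ang II at 1000 ng/kg per minute, through pumps under the skin for 14 days. *Plod1* encodes lysyl hydroxylase 1, which hydroxylates lysines of collagen chains and so prepares them for cross-linking, and both knockout groups lack it, whatever their treatment. The labels give an age of 6 months, and the study's methods give male littermates and a younger age when the pumps were put in. The unit is FPKM, a read level scaled to the length of the transcript and to the reads of the library, so that levels can be compared between genes. *Plod1* was listed at 22.8 to 29.6 FPKM in the 10 WT mice and at 0.0415 FPKM or less in the 10 *Plod1*-/- mice. *Xist*, which is transcribed in female cells, reached 15.1 FPKM in replicate 5 of the saline-treated knockout group and 7.93 FPKM in replicate 1 of the Ang II-treated one, while 18 libraries had 0.0328 FPKM or less. All 8 smooth muscle markers and all 10 fibroblast markers were above 0 in every library. The endothelial, macrophage, adipocyte and cartilage markers were too, so this does not identify the tissue. Among the smooth muscle markers *Acta2* was at 1901 FPKM or more and *Tagln* at 12.2 FPKM or less in every library. Ang II-treated WT replicate 4 stood apart from the rest of its group, with 14.6% of its FPKM in mitochondrial genes against 20.8% to 29.1% and a summed level of 8 adipocyte markers of 1052 FPKM against 4050 to 6468 FPKM. In the fit of the WT response without that mouse, 1403 genes passed the test used below, and at 82.5% of them it was closer to the saline mean than to the mean of the other 4 Ang II-treated mice. The same measure was 0.96% to 12.5% for each of those 4 mice. The library thus goes against its label at most of these genes, which bears on each WT Ang II mean, genotype difference under Ang II and interaction below. It was not like the saline-treated WT mice at every gene. Its sum of adipocyte markers was above their 92.7 to 647 FPKM, and *Comp* was at 57.5 FPKM against 26.7 to 39.6 FPKM. Why this library stood apart, for example by a wrong label or a failed infusion, was not tested. Calls of members are given with and without that library where it enters the comparison, and with and without the libraries with *Xist* RNA. In whole tissue, fewer cells that make an RNA and less RNA per cell cannot be told apart.

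In the saline-treated WT aorta, the levels of the 10 genes spanned from 1349 to 11.1 FPKM on average. Biglycan (*Bgn*), which carries chondroitin or dermatan sulfate chains and binds collagen, was the most abundant at 1349 ± 62.4 FPKM (SD, n = 5). Its lowest mouse, at 1261 FPKM, was above the highest mouse of any other member. Next came *Prelp* (277 ± 68.9 FPKM), decorin (*Dcn*, 254 ± 46.7 FPKM), *Ogn* (235 ± 22.7 FPKM) and *Islr* (216 ± 36.1 FPKM), whose ranges overlapped from each to the next. Fibromodulin (*Fmod*, 82.6 ± 17.1 FPKM) and lumican (*Lum*, 71.0 ± 21.8 FPKM) overlapped each other and lay below *Islr* in all 5 mice. *Podn* (21.4 ± 3.43 FPKM) and *Aspn* (17.8 ± 1.94 FPKM) also overlapped, and *Omd* was lowest at 11.1 ± 2.14 FPKM. This order differed in the Ang II-treated *Plod1*-/- group. There *Bgn* (666 ± 189 FPKM) was again above all others, *Dcn* (137 ± 53.9 FPKM) and *Lum* (109 ± 78.5 FPKM) came next, and *Prelp*, *Ogn*, *Aspn* and *Islr* had means between 55.4 and 63.5 FPKM with overlapping ranges.

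**Figure D1:**
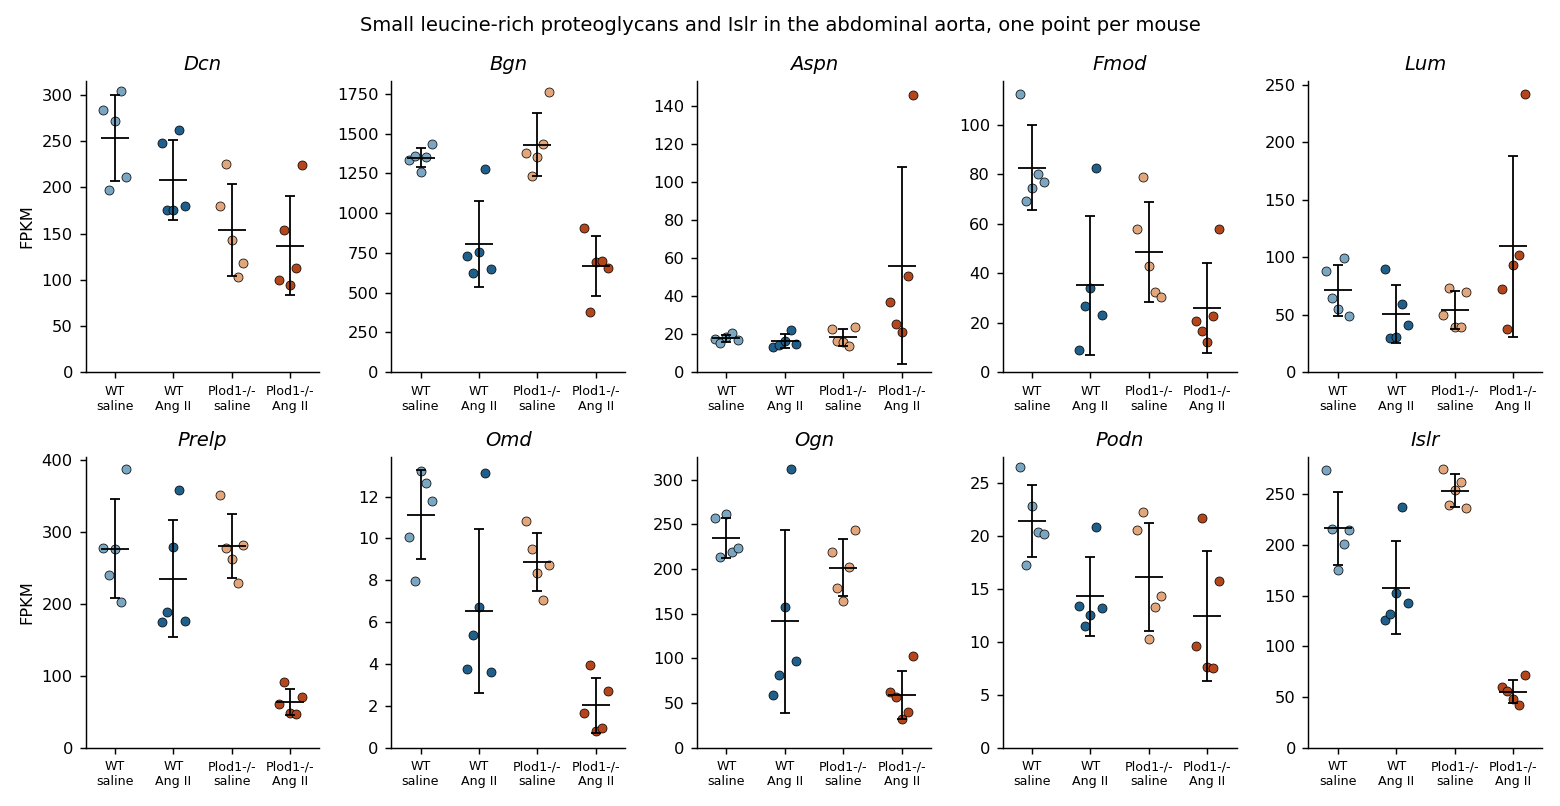
FPKM of each member gene (vertical axes, linear and starting at 0) in the 4 groups, with 1 point per mouse in replicate order from left to right, a horizontal bar at the mean and whiskers of 1 SD (n = 5). *Prelp*, *Omd*, *Ogn*, *Bgn* and *Islr* were lower in all 5 Ang II-treated *Plod1*-/- mice than in any saline-treated *Plod1*-/- mouse, and *Aspn* reached 146 FPKM in 1 Ang II-treated *Plod1*-/- mouse.

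The summed level of the 9 proteoglycan genes was lower on average under Ang II in both genotypes. It ran from 2187 to 2432 FPKM in saline-treated WT mice and was 1341, 1156, 1464, 2406 and 1196 FPKM in Ang II-treated WT replicates 1 to 5. In saline-treated *Plod1*-/- mice it ran from 2037 to 2551 FPKM, and in Ang II-treated *Plod1*-/- mice it was 1268, 784, 1004, 1084 and 1517 FPKM. Only Ang II-treated WT replicate 4 overlapped the saline-treated groups. *Bgn* made up most of the sum in all groups but varied more among the Ang II-treated *Plod1*-/- mice, from 43.2% to 71.4%, than among the Ang II-treated WT mice, from 51.4% to 54.5%. *Lum* took 9.02% ± 4.42 of the sum in Ang II-treated *Plod1*-/- mice and 2.44% to 3.46% on average in the other groups. *Prelp* took 6.04% ± 3.15 there and 11.9% to 15.6% on average elsewhere (SD, n = 5). These shares contain the members' own changes and were not tested.

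**Figure D2:**
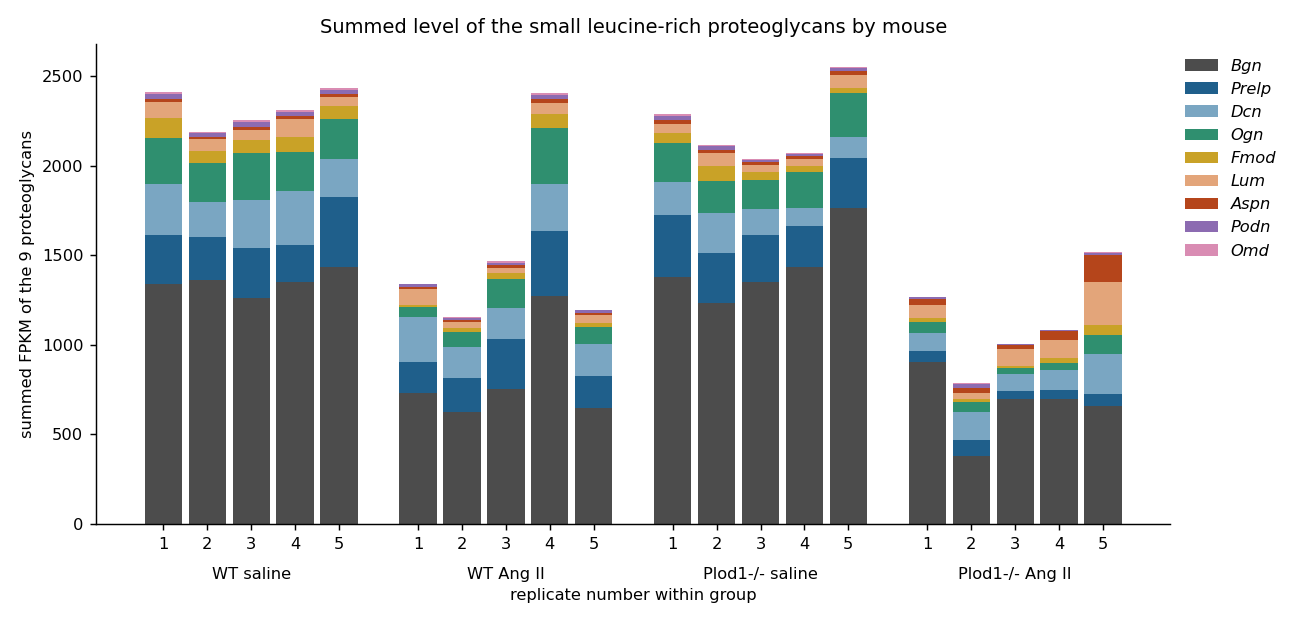
Summed FPKM of the 9 proteoglycan genes (vertical axis, linear from 0) in each of the 20 mice, stacked by gene. The Ang II-treated mice of both genotypes had shorter bars than the saline-treated mice, except Ang II-treated WT replicate 4 at 2406 FPKM.

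The first comparison asked how these genes responded to Ang II in mice without lysyl hydroxylase 1. Among the 9 proteoglycan genes 4 were lower, 1 was higher and 4 did not pass the test. *Prelp*, *Ogn*, *Omd* and *Bgn* fell, *Aspn* rose, and *Dcn*, *Podn*, *Fmod* and *Lum* did not pass. A gene passed as a differentially expressed gene (DEG) when its Benjamini-Hochberg adjusted p in limma on log2(FPKM + 1) was below 0.05 and its log2 fold change was above 1 in size, and the pseudocount of 1 shrinks the change of genes near or under 1 FPKM. Of the 12333 genes tested, 5.51% were DEGs with lower and 8.38% with higher expression. The median log2 fold change of the 9 proteoglycan genes was that of *Fmod*, -1.0, and that of all genes tested was 0.05. The 4 genes that fell were lower in all 5 Ang II-treated mice than in any saline-treated mouse, a separation that 15.0% of all genes tested showed in the same direction. The mice of the second comparison, of Ang II in WT mice, were other animals, whereas the later comparisons of genotype share groups with both.

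*Prelp*, whose protein binds both collagen and the heparan sulfate of basement membranes, had the lowest log2 fold change of FPKM + 1 among the 9. Its level was 351, 278, 263, 228 and 281 FPKM in saline-treated *Plod1*-/- replicates 1 to 5. Under Ang II it was 60.1, 91.4, 48.2, 47.4 and 70.4 FPKM. The highest treated mouse was far below the lowest control mouse. The change on the log2 scale was -2.15 (limma adjusted p = 3.96e-05, SE 0.19), and the mean under Ang II was 22.6% of that under saline. Leaving out any single mouse kept it a DEG.

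*Ogn* encodes osteoglycin (mimecan), a small proteoglycan of vascular and skeletal matrix. It was at 219, 179, 164, 203 and 244 FPKM under saline and at 62.5, 57.1, 32.6, 40.2 and 102 FPKM under Ang II. No treated mouse reached the control range, and the change on the log2 scale was -1.85 (limma adjusted p = 4.23e-04, SE 0.27). *Omd* encodes osteomodulin, a keratan sulfate proteoglycan known from bone. Its level was low in the aorta, at 10.8, 9.48, 8.36, 7.08 and 8.72 FPKM under saline and 1.68, 3.97, 0.804, 0.926 and 2.73 FPKM under Ang II. It also separated the groups without overlap, at a log2 difference of -1.81 (limma adjusted p = 4.31e-04, SE 0.26). The mean of *Omd* under Ang II was 22.7% of that under saline, against 22.6% for *Prelp*. The pseudocount of 1 shrinks the log2 change of *Omd* more, so their order rests on that scale.

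*Bgn* was at 1375, 1233, 1350, 1432 and 1761 FPKM in saline-treated *Plod1*-/- mice and at 905, 377, 695, 700 and 656 FPKM in Ang II-treated ones. Every treated mouse was below every control mouse, and replicate 2 was the lowest. Its log2 fold change came to -1.15 (limma adjusted p = 0.00249, SE 0.23). Without Ang II-treated replicate 2 it was -0.95 (adjusted p = 0.00245 in limma), which is under the fold threshold.

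Asporin (*Aspn*), a collagen-binding member that lacks glycosaminoglycan chains and binds transforming growth factor β, was the member that rose. It was at 22.6, 16.1, 15.8, 13.7 and 23.8 FPKM under saline and at 36.9, 25.1, 21.1, 50.8 and 146 FPKM under Ang II. The ranges overlapped, since 4 of the 5 treated mice were above every control mouse and replicate 3 was not. On the log2 scale *Aspn* rose by 1.21 (limma adjusted p = 0.0476, SE 0.45). The call was lost in 8 of the 10 fits that left out 1 mouse, and without Ang II-treated replicate 5, the mouse at 146 FPKM, the log2 fold change was 0.78 (adjusted p = 0.0389 in limma). Without both libraries that held *Xist* RNA it was 1.36 with an adjusted p of 0.0665 in limma, while the 4 genes that fell passed there too. Quantile normalization (adjusted p = 0.0753 in limma), leaving out mitochondrial genes (0.0780) and no filter on low values (0.113) also ended the call of *Aspn*.

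The other 4 proteoglycan genes did not pass. *Fmod*, whose protein binds collagen and guides its cross-linking, was at 57.7, 79.0, 43.1, 32.4 and 30.4 FPKM under saline and at 20.4, 16.4, 12.1, 22.5 and 58.0 FPKM under Ang II. Replicate 5 was the treated mouse within the control range, and the log2 fold change was -1.0 (limma adjusted p = 0.0613, SE 0.39). Without that mouse it was -1.34 (adjusted p = 0.00598 in limma), which passes, as it did under quantile normalization (-1.08, adjusted p = 0.0471). *Lum*, a keratan sulfate proteoglycan that sets fibril spacing, was at 39.0 to 73.5 FPKM under saline and at 72.1, 37.1, 93.4, 102 and 243 FPKM under Ang II. Its log2 fold change was 0.79 (limma adjusted p = 0.150, SE 0.42). Without Ang II-treated replicate 2, its lowest treated mouse, *Lum* had a log2 fold change of 1.11 (adjusted p = 0.0288 in limma), and without replicate 5, its highest, one of 0.44 (adjusted p = 0.298). *Dcn*, which limits the lateral growth of collagen fibrils, had a log2 fold change of -0.19 with a 95% interval of -0.80 to 0.43. *Podn*, which encodes podocan, had one of -0.41 with an interval of -1.09 to 0.26. Reads of *Podn* are uncertain because its span overlaps *Scp2* on the same strand, a gene listed at up to 205 FPKM.

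*Islr* was at 275, 240, 255, 262 and 236 FPKM in saline-treated *Plod1*-/- mice and at 59.9, 55.9, 48.1, 41.9 and 71.3 FPKM in Ang II-treated ones. The groups were far apart, with a mean under Ang II of 21.9% of that under saline. The log2 fold change of -2.20 was the 44th lowest of the 12333 genes tested, and this decrease is what chose the gene. Its annotated span on chromosome 9 overlaps *Islr2* on the same strand, which was listed at no more than 3.15 FPKM in any mouse.

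Cell type markers moved in the same comparison, and their part in these results was not tested. All 7 macrophage markers were DEGs with higher expression, led by *Cd68*, *Lyz2* and *Adgre1*, and their summed level ran from 52.0 to 203 FPKM under saline and from 591 to 3624 FPKM under Ang II. Of 8 smooth muscle markers 6 were lower, led by *Lmod1*, *Myh11* and *Smtn*. The sum of the 8 ran from 15080 to 20760 FPKM under saline. It was 16990, 4224, 6205, 3776 and 2327 FPKM in Ang II-treated replicates 1 to 5, so that replicate 1, a library with *Xist* RNA, lay within the saline range. The 10 fibroblast markers went both ways, 3 higher (*Mfap5*, *Lsp1* and *Cd248*) and 1 lower (*Clec3b*), with sums of 884 to 1780 FPKM and 744 to 1287 FPKM. Adipocyte markers were higher for 2 of 8 (*Adipoq* and *Fabp4*). Of 6 endothelial markers *Cdh5* was higher (1.47), *Erg* (-0.53) was lower on the adjusted p in limma alone, and the median was 0.10. Of 4 skeletal muscle markers tested *Tcap* was lower (-4.02), while *Acta1* (-0.23), *Mylpf* (-0.22) and *Tnnt3* (0.14) did not pass. Under saline *Tcap* was at 330 to 658 FPKM and those 3 were at 0.845 to 3.40 FPKM. No macrophage, smooth muscle or fibroblast marker was at 0 in any library.

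**Figure D3:**
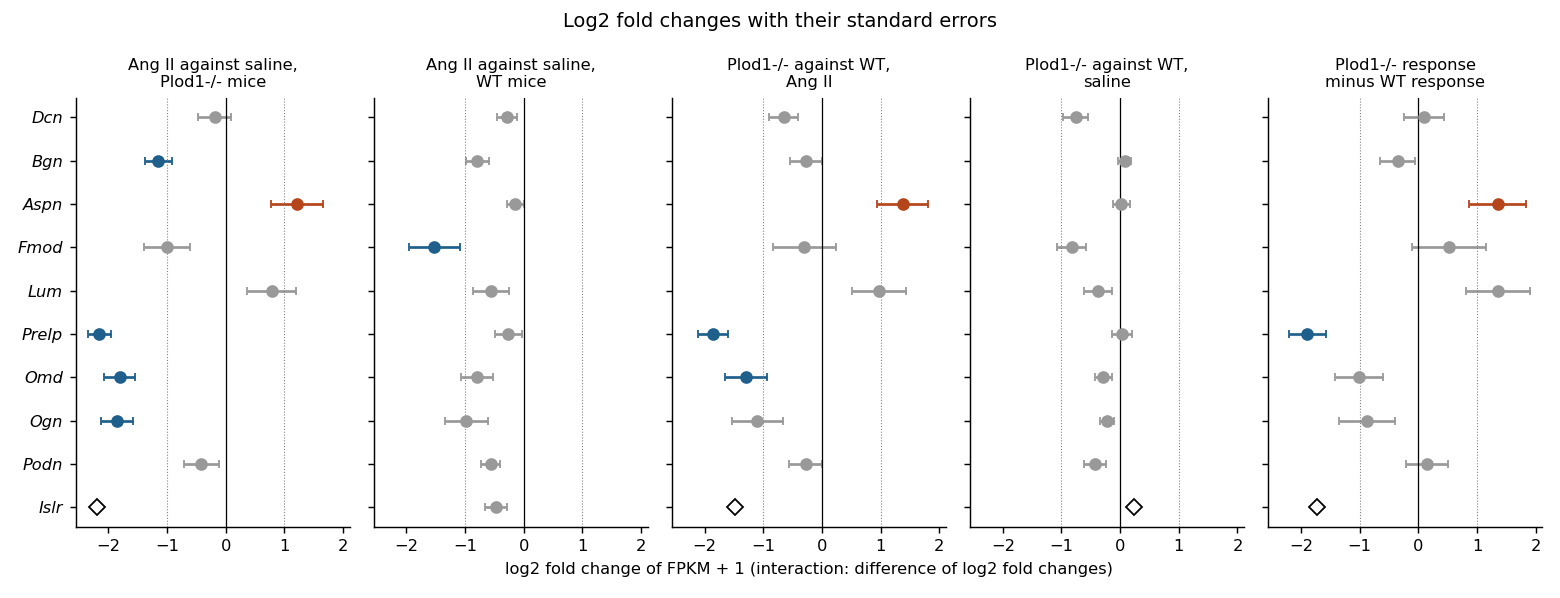
Log2 fold change of FPKM + 1 (horizontal axes) of each member in the 5 comparisons, with whiskers of 1 standard error from limma. Blue points were DEGs with lower expression, orange points DEGs with higher expression and grey points did not pass, dotted lines mark a log2 fold change of 1 in size, and open diamonds show *Islr* where it has no test. *Prelp* was at -2.15 in the *Plod1*-/- response and at -0.26 in the WT response.

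The same question was then asked in WT mice. Of the 9 proteoglycan genes *Fmod* alone was a DEG, with lower expression, against 2.28% lower and 6.38% higher of the 11994 genes tested. On the adjusted p alone, with no fold threshold, *Fmod*, *Bgn*, *Omd* and *Podn* passed, all lower, as 21.5% of all genes tested did. The log2 fold change was below 0 for all 9, with a median of -0.57, against -0.14 over all genes tested. No member separated the groups of 5 without overlap, which 6.88% of all genes tested did in the lower direction. Ang II-treated replicate 4 was the highest of its group for 9 of the 10 members.

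*Fmod* was at 112, 69.2, 74.3, 80.3 and 77.0 FPKM in saline-treated WT mice and at 8.76, 26.7, 34.0, 82.6 and 23.2 FPKM under Ang II. Replicate 4 was the treated mouse within the control range. On the log2 scale the change was -1.53 (limma adjusted p = 0.0205, SE 0.43), and without replicate 4 it was -1.91 (adjusted p = 8.16e-04 in limma). With no filter on low values the adjusted p was 0.0654 in limma, over more genes tested. *Bgn* was at 1337, 1360, 1261, 1352 and 1436 FPKM under saline and at 731, 624, 752, 1275 and 646 FPKM under Ang II. Its log2 fold change of -0.79 (limma adjusted p = 0.0111, SE 0.19) was under the fold threshold, as was that without replicate 4, -0.97 (adjusted p = 1.02e-04 in limma). *Ogn* was at 258, 214, 261, 219 and 223 FPKM under saline and at 59.3, 81.0, 158, 312 and 97.2 FPKM under Ang II, so that 4 treated mice were below and replicate 4 was above every control mouse. This gave a change of -0.98 on the log2 scale (limma adjusted p = 0.0510, SE 0.36). *Omd* had a log2 difference of -0.80 (limma adjusted p = 0.0408, SE 0.28), with 3.78, 5.38, 6.73, 13.1 and 3.60 FPKM under Ang II and 7.95 to 13.2 FPKM under saline.

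Without replicate 4, *Fmod*, *Omd* and *Ogn* were DEGs, with log2 fold changes of -1.91, -1.06 and -1.33, 3 of 9 against 4.13% of the 11781 genes then tested in the lower direction. *Bgn*, *Fmod*, *Omd*, *Ogn* and *Podn*, 5 of the 9, then separated the 4 treated from the 5 control mice without overlap, as 27.8% of all genes tested did in the lower direction. *Islr* could be tested here, since WT mice did not choose it. It was at 274, 216, 176, 201 and 215 FPKM under saline and at 126, 132, 152, 237 and 143 FPKM under Ang II, with 4 treated mice below every control mouse. The change was -0.48 on the log2 scale (limma adjusted p = 0.0601, SE 0.19), which does not pass. Without replicate 4 it was -0.63 (adjusted p = 0.00277 in limma), still under the fold threshold.

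*Prelp*, *Dcn*, *Lum* and *Aspn* passed neither criterion in WT mice. *Prelp* was at 174, 188, 279, 358 and 177 FPKM under Ang II and at 277, 241, 276, 203 and 387 FPKM under saline, with a log2 fold change of -0.26 and a 95% interval of -0.78 to 0.25. *Aspn* was at 13.3 to 22.4 FPKM under Ang II and at 15.4 to 20.6 FPKM under saline, with a log2 fold change of -0.14 and an interval of -0.45 to 0.17. In this comparison all 7 adipocyte markers tested were DEGs with higher expression, led by *Ucp1*, *Cox8b* and *Cidea*, and the sum of the 8 ran from 92.7 to 647 FPKM under saline and from 1052 to 6468 FPKM under Ang II. Smooth muscle markers were lower for 3 of 8 (*Myocd*, *Cnn1* and *Tagln*), with sums of 14150 to 20490 FPKM and 5532 to 17070 FPKM. None of the 10 fibroblast markers was a DEG. Their median log2 fold change was -0.42, with sums of 1656 to 2592 FPKM under saline and 1205 to 1828 FPKM under Ang II. On the adjusted p in limma alone 6 of 8 smooth muscle markers were lower. On that criterion 4 fibroblast markers were lower and 1 was higher, where 21.5% of all genes tested were lower. Of 5 skeletal muscle markers tested 3 were higher (*Acta1*, *Tnnt3* and *Mylpf*). So were 1 of 6 endothelial (*Cdh5*), 1 of 6 tested macrophage (*Lyz2*) and 1 of 4 tested cartilage markers (*Comp*). On the adjusted p in limma alone the endothelial markers *Pecam1* (-0.85) and *Erg* (-0.48) were lower. The cartilage markers *Acan* (-0.33), *Sox9* (-0.32) and *Chad* (-0.18) did not pass. The median log2 fold change was -0.09 over the endothelial and -0.25 over the cartilage markers. Mitochondrial genes took 8.37% to 14.6% of the FPKM under saline and 14.6% to 29.1% under Ang II. The part of these shifts in the members' values was not tested.

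The difference between the responses of the genotypes was tested as an interaction over all 20 mice. Of the 9 proteoglycan genes *Prelp* and *Aspn* passed, in opposite directions. Among 13263 genes tested 6.36% passed with a lower and 9.69% with a higher response in *Plod1*-/- mice, or 844 and 1285 genes, and with quantile normalization 1095 and 1020. The median difference was 0.10 over the 9 and 0.12 over all genes tested. The response of *Prelp* was lower by 1.89 on the log2 scale (log2 difference -1.89, limma adjusted p = 2.79e-04, SE 0.32), and the call held in all 20 fits that left out 1 mouse, at -1.72 without Ang II-treated WT replicate 4, and at -1.88 without the *Xist* libraries. The response of *Aspn* was higher by 1.36 (limma adjusted p = 0.0353, SE 0.49), and 10 of those 20 fits lost the call, as did quantile normalization (adjusted p = 0.0615 in limma), leaving out mitochondrial genes (0.0712) and no filter (0.0890). The call of *Aspn* held without WT replicate 4 (1.47, adjusted p = 0.0256 in limma) and without the *Xist* libraries (adjusted p = 0.0325). *Lum* (1.35, adjusted p = 0.0576 in limma) and *Omd* (-1.01, adjusted p = 0.0553) did not pass. With quantile normalization *Omd* did (-1.16, adjusted p = 0.0237 in limma), and without Ang II-treated WT replicate 4 *Lum* did (1.45, adjusted p = 0.0491 in limma), as it did without the *Xist* libraries (1.54, adjusted p = 0.0484). *Ogn* had a difference of -0.88 (adjusted p = 0.155) and one of -0.53 (0.267) without WT replicate 4. For *Dcn*, *Bgn*, *Podn* and *Fmod* the differences lay between -0.35 and 0.53 with intervals that held 0. *Islr* had a difference of -1.72, with no test. The response of 6 of 7 macrophage markers was higher in *Plod1*-/- mice. A lower response was found for 4 of 8 adipocyte, 3 of 8 smooth muscle, 4 of 5 tested skeletal muscle and 1 of 4 tested cartilage markers (*Comp*). Of 10 fibroblast markers 3 had a higher response (*Mfap5*, *Lsp1* and *Pdgfra*). Their part in these differences was not tested.

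Between the Ang II-treated genotypes, *Prelp* and *Omd* were lower and *Aspn* was higher in *Plod1*-/- mice, 3 of 9, against 3.67% lower and 7.45% higher of the 12356 genes tested, or 453 and 920 genes, and with quantile normalization 612 and 744. This comparison shares its mice with those above. *Prelp* had a log2 difference of -1.85 (limma adjusted p = 0.00152, SE 0.25), and its highest *Plod1*-/- mouse, at 91.4 FPKM, was below the lowest WT mouse, at 174 FPKM. It was the member tested that separated these groups, as 4.62% of all genes tested did in the lower direction. *Omd* had a log2 difference of -1.30 (limma adjusted p = 0.0206, SE 0.36) and lost the call when WT replicate 3 or *Plod1*-/- replicate 3 or 4 was left out, and with no filter (adjusted p = 0.0610 in limma) or the replicate number as a block (0.0595). *Aspn* had one of 1.38 (limma adjusted p = 0.0345, SE 0.44) and lost the call in 6 of the 10 fits without 1 mouse, under quantile normalization (adjusted p = 0.0587 in limma), without mitochondrial genes (0.0623) and with no filter (0.0950). Without *Plod1*-/- replicate 5 its log2 fold change was 0.94. All 3 calls held without WT replicate 4, at -1.69 for *Prelp*, -1.03 for *Omd* and 1.49 for *Aspn*, and without the *Xist* library, at -1.84, -1.28 and 1.43. *Ogn* (-1.10, adjusted p = 0.0762 in limma, and -0.76 without WT replicate 4), *Dcn* (-0.65, adjusted p = 0.0681) and *Lum* (0.97, adjusted p = 0.126) did not pass. *Fmod* was at -0.30 and turned to 0.09 without WT replicate 4. The log2 fold change of *Islr* was -1.48, with all 5 *Plod1*-/- mice below all 5 WT mice. Between the same mice 6 of 7 macrophage markers were higher in *Plod1*-/- mice, with sums of 591 to 3624 FPKM against 197 to 1231 FPKM. Of the fibroblast markers 2 were higher and 4 lower. Lower were also 2 of 8 smooth muscle, 3 of 8 adipocyte, 3 of 5 tested skeletal muscle and 1 of 4 tested cartilage markers (*Comp*). Their part in the members' values was not tested.

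Under saline, none of the 9 proteoglycan genes passed in limma between the genotypes, against 0.408% of 11999 genes lower and 0.358% higher. At an unadjusted p below 0.05 there were 3, *Dcn*, *Fmod* and *Podn*, all lower in *Plod1*-/- mice, where 14.4% of all genes tested were lower at that p and 27.1% passed it in either direction. *Dcn* was at 179, 226, 143, 103 and 118 FPKM in *Plod1*-/- mice and at 284, 198, 272, 304 and 211 FPKM in WT mice, so that 4 of 5 knockout mice were below every WT mouse. *Dcn* thus had a log2 difference of -0.75 (limma adjusted p = 0.0566, SE 0.21), and one of -0.67 (adjusted p = 0.115 in limma) without the library with *Xist* RNA. *Fmod* had one of -0.83 (limma adjusted p = 0.0670, SE 0.25), and it passed, at -1.02, when *Plod1*-/- replicate 2 was left out. *Bgn*, *Aspn* and *Prelp* lay within 0.08 of 0, with intervals inside -0.34 and 0.41. *Islr* was higher by 0.24, with overlapping groups. Of the 10 fibroblast markers *Clec3b* and *Pi16* were lower, and the sum ran from 884 to 1780 FPKM in *Plod1*-/- and from 1656 to 2592 FPKM in WT mice. The part of that shift in the value of *Dcn* was not tested.

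Pairs of one structural class were also compared as ratios within each library, which depend little on scaling between libraries. *Bgn* exceeded *Dcn* in every mouse. The ratio of their FPKM was 5.50 ± 1.23 in saline-treated and 3.85 ± 0.74 in Ang II-treated WT mice, and 10.3 ± 4.05 and 5.60 ± 2.85 in the corresponding *Plod1*-/- groups (SD, n = 5). The ratio of *Fmod* to *Lum* was 1.22 ± 0.30 and 0.81 ± 0.50 in WT mice and 0.92 ± 0.30 and 0.26 ± 0.12 in *Plod1*-/- mice, saline first. On the log2 scale the *Fmod* to *Lum* ratio was lower by 1.79 (log2 difference -1.79) under Ang II in *Plod1*-/- mice, with an exact two-sided permutation p of 0.0159 and an adjusted p of 0.106 over the 8 tests made. The groups overlapped. The *Bgn* to *Dcn* ratio differed between the saline-treated genotypes by 0.83 (exact permutation p = 0.0317, adjusted p = 0.106) and between the WT treatments by -0.51 (exact permutation p = 0.0397, adjusted p = 0.106). No ratio passed after adjustment. The smallest p that 5 mice against 5 allow is 0.00794, at which 1 ratio alone could not pass over the 8 tests.

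**Figure D4:**
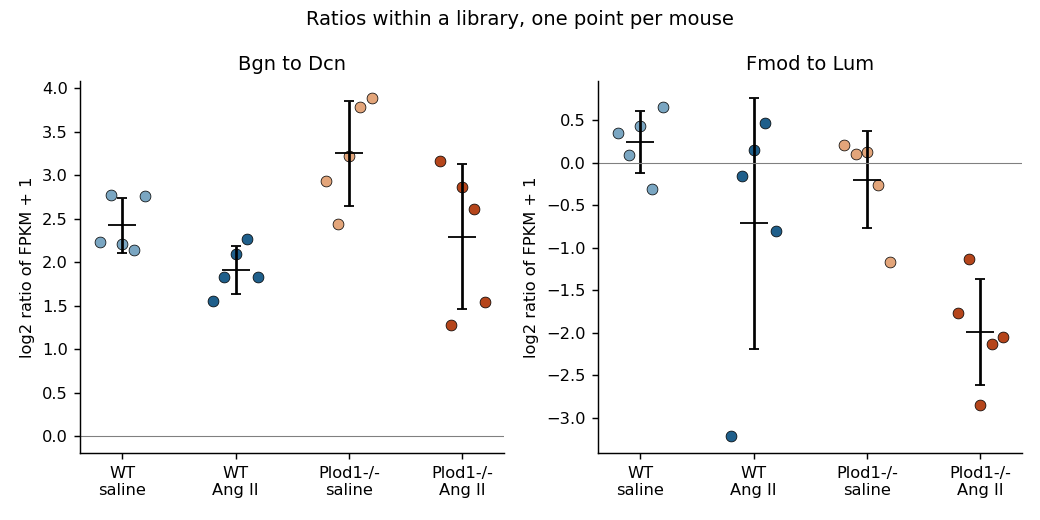
Log2 ratio of FPKM + 1 of *Bgn* to *Dcn* and of *Fmod* to *Lum* (vertical axes) in the 4 groups, with 1 point per mouse, a bar at the mean and whiskers of 1 SD (n = 5). The mean *Fmod* to *Lum* ratio was lowest in Ang II-treated *Plod1*-/- mice, where all 5 mice were below 0, the groups overlapped, and the lowest single mouse was Ang II-treated WT replicate 1 at -3.22.

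Several members are neighbours in the genome (GRCm38, GENCODE M21). *Ecm2*, *Aspn*, *Omd* and *Ogn* lie in this order and on the same strand of chromosome 13 within 119.7 kb, inside the span of *Cenpp* on the opposite strand, which was listed at no more than 0.896 FPKM. *Ecm2*, a leucine-rich repeat matrix protein outside the 10 genes, was at 29.9 to 41.1 FPKM in saline-treated and at 3.81 to 10.4 FPKM in Ang II-treated *Plod1*-/- mice (log2 fold change -2.25, limma adjusted p = 5.21e-05, SE 0.22). Thus *Ecm2*, *Omd* and *Ogn* fell in *Plod1*-/- mice and *Aspn*, which lies between *Ecm2* and *Omd*, rose, though its call was lost in 8 of the 10 fits that left out 1 mouse. In WT mice *Ecm2* was at 33.9 to 42.1 FPKM under saline and at 11.5, 14.9, 23.3, 43.4 and 15.6 FPKM under Ang II. Its log2 fold change there was -0.95 (limma adjusted p = 0.0235, SE 0.28), under the fold threshold. Those of *Omd*, *Ogn* and *Aspn* in WT mice were -0.80, -0.98 and -0.14. On chromosome 1, *Optc* and *Prelp* lie next to each other and *Fmod* within 151.1 kb. *Optc*, which encodes opticin, fell by 2.21 on the log2 scale (limma adjusted p = 6.09e-04, SE 0.34) in *Plod1*-/- mice and by 1.5 (adjusted p = 0.00784 in limma) in WT mice. *Dcn* and *Lum* lie within the same 202.8 kb of chromosome 10 as *Kera* and *Epyc*, which were too low to be tested. *Bgn* is on the X chromosome (73483602 to 73495933), *Podn* on chromosome 4 and *Islr* on chromosome 9 (58156268 to 58204306).

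**Figure D5:**
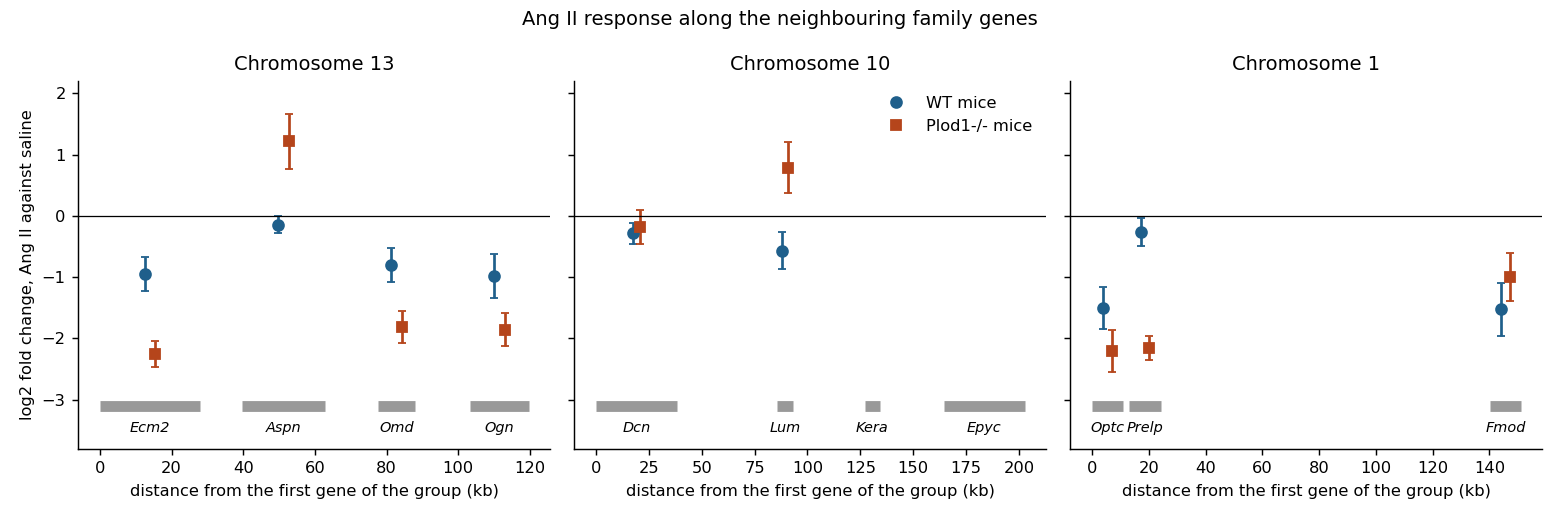
Log2 fold change of FPKM + 1, Ang II against saline (vertical axis), of neighbouring family genes in WT mice (blue circles) and *Plod1*-/- mice (orange squares), with whiskers of 1 standard error, at the middle of each gene (grey bars, kb from the start of the group). On chromosome 13 *Aspn* was at 1.21 in *Plod1*-/- mice between *Ecm2* at -2.25 and *Omd* at -1.81.

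The sequences before the starts of *Aspn*, *Omd*, *Ogn* and *Prelp* are shown because these are neighbours with opposite responses and the member with the lowest log2 fold change. They are the 250 bases before the RefSeq start (GRCm38.p6), written 5′ to 3′ on the strand of the gene. Both strands were searched for 5 motifs, with matches in capitals. The motif searched as the core of the box bound by TBP was TATAAA. The one searched as the binding motif of the factor NF-Y was CCAAT. For the factor AP-1 the letters were TGANTCA. For the MCAT element of muscle genes they were CATTCC. The CArG box, bound by serum response factor, was the last. *Aspn* is at chr13:49544193-49544442 and *Omd* at chr13:49582212-49582461, both on the plus strand. *Ogn* is at chr13:49607765-49608014 on the plus strand and *Prelp* at chr1:133921402-133921651 on the minus strand.
Aspn: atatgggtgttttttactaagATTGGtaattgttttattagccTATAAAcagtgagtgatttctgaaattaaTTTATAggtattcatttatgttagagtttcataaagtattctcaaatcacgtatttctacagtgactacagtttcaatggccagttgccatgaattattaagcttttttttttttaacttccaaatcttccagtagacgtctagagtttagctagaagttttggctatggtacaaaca
Omd: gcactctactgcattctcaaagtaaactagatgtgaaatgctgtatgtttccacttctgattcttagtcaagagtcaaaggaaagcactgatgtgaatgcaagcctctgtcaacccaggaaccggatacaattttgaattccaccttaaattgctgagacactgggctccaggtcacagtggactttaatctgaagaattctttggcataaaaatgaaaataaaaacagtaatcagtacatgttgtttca
Ogn: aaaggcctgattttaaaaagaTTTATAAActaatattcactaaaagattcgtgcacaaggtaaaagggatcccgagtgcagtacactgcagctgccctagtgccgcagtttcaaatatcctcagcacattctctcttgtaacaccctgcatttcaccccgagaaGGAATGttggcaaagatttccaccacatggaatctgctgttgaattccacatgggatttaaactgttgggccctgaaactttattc
Prelp: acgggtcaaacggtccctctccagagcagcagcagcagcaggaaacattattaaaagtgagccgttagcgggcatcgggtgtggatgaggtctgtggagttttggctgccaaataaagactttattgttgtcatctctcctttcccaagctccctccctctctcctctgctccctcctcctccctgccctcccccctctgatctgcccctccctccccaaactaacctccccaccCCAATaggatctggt

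TATAAA was found on either strand in *Aspn* and *Ogn*, in each case 173 or more bases before the start, and in 12.4% of all 32851 windows of this length. CCAAT stood in *Aspn* and in *Prelp*, where it ended 11 bases before the start, and in 33.8% of all windows. CATTCC was found in *Ogn* and in 12.6% of all windows. TGANTCA (6.75% of all windows) and the CArG box (1.47%) were in none of the 8 members with a window, which are all but *Dcn* and *Lum*. *Omd*, *Islr*, *Bgn*, *Fmod* and *Podn* held none of the 5 motifs in these 250 bases. The share of G and C was 30.0% before *Aspn*, 38.4% before *Omd*, 42.0% before *Ogn* and 55.6% before *Prelp*, against a median of 52.4% over all windows. A match describes these letters only.

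Genes with levels most like those of the members were named by Pearson's r of log2(FPKM + 1) over the 20 mice, among 13263 genes, as a description. These mice fall into 4 groups and share treatments, so that r contains the differences between groups. The gene most like both *Omd* (r = 0.974) and *Ogn* (r = 0.952) was their neighbour *Ecm2*. After the group means were removed, r was 0.893 and 0.849. *Tmtc1* and *Cped1* came next for *Omd*, and *Gm28932* and *Hnrnph3* for *Ogn*. For *Islr* the 5 genes were *Cpq*, *Aldh7a1*, *Wfikkn2*, *Lamb2* and *Cd99l2*, with r from 0.974 to 0.958, and from 0.495 to 0.807 with the group means removed. *Prelp* was most like *Jmjd8*, *Aplp2* and *Rnf123* (r from 0.960 to 0.963) and *Bgn* most like *Cacna2d1*, *Trak2* and *Pam* (0.950 to 0.961). *Dcn* was most like *Serping1*, *Cd34* and *C7* (0.890 to 0.923), and *Aspn* most like *Plagl1*, *C1qtnf3* and *Fgf18* (0.915 to 0.923), where Spearman's rho was lower, at 0.547 to 0.746. *Lum* was most like *Mmp2*, *Sfrp1* and *Adamts2* (0.853 to 0.860). The highest values were 0.877 for *Fmod*, with *Gm527* ahead of *Qpct* and *Bdkrb2*, and 0.874 for *Podn*, with *Ppl* ahead of *Clk4* and *Entpd2*.

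Other genes of the pathway were taken from lists, and the test calls are given by count. Of 10 further family genes 4 were tested in each pairwise comparison. In the *Plod1*-/- response *Ecm2* and *Optc* were lower and *Tsku* (tsukushi), a leucine-rich repeat signalling protein, was higher, from 5.79 to 15.1 FPKM under saline to 22.6 to 36.4 FPKM under Ang II (log2 fold change 1.65, limma adjusted p = 6.54e-04, SE 0.26). Between the Ang II-treated genotypes *Ecm2* was lower (-1.49) and *Tsku* higher (1.21) in *Plod1*-/- mice, and *Ecm2* also had a lower response by the interaction (-1.31).

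Of 30 genes for the synthesis of glycosaminoglycan chains 26 were tested in the Ang II comparisons. In *Plod1*-/- mice 2 rose and none fell, where 8.38% of all genes tested rose and 5.51% fell. *Ugdh*, which makes the UDP-glucuronate needed for chain synthesis, rose from 4.71 to 6.17 FPKM under saline to 11.5 to 20.6 FPKM under Ang II (log2 fold change 1.28, limma adjusted p = 9.47e-05, SE 0.14), and the sulfotransferase gene *Chst11* rose by 1.37. In WT mice 2 rose and 3 fell, with *Ugdh* at -1.03, against 6.38% and 2.28% of all genes tested. The largest in size were *Chst3* (-1.63), *Chst1* (1.38) and *Chst15* (1.20). The difference between the responses passed for 5 of 26, all higher in *Plod1*-/- mice, with *Ugdh* (2.30), *Xylt1* (1.34) and *Papss2* (1.22) ahead. Over all genes tested 9.69% passed with a higher and 6.36% with a lower response. *Ugdh* was also higher in Ang II-treated *Plod1*-/- than WT mice (1.37), as were *Chsy1* (1.15) and *Dse* (1.01). These were 3 of 26, where 7.45% of all genes tested were higher. The median of the list was 0.22 in the *Plod1*-/- response and -0.19 in the WT response, against 0.05 and -0.14 over all genes tested.

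All 6 fibrillar collagen genes tested rose in the *Plod1*-/- response, led by *Col1a1* (3.27), *Col3a1* (3.07) and *Col5a3* (3.03) on the log2 scale. The median of the list was 2.56, against 0.05 over all genes tested. *Col1a1* went from 96.9 ± 29.5 to 1217 ± 1095 FPKM (SD, n = 5). In WT mice none of 5 tested was a DEG in limma, with log2 fold changes from -0.59 to -0.20, and *Col1a2* (-0.59, adjusted p = 0.0383 in limma) missed only the fold threshold. *Col5a3*, too low in WT mice to enter that test, was at 0.279 to 0.617 FPKM under saline and at 0.839 to 11.4 FPKM under Ang II, with every treated mouse above every control mouse. Thus the collagen genes and *Prelp*, *Ogn*, *Omd* and *Bgn* moved in opposite directions in *Plod1*-/- mice. Of 7 receptor genes tested *Cd14*, *Cd44*, *Tlr2* and *Kdr* rose in the *Plod1*-/- response, where 8.38% of all genes tested did. *Cd14* rose by 3.46 and *Cd44* by 2.30, with a list median of 1.09. On the adjusted p in limma alone *Egfr* (0.78) and *Tlr4* (0.49) were also higher and *Igf1r* (-0.69) was lower, where 5408 of 12333 genes passed. *Tlr2* (1.17) and *Cd14* encode parts of receptors for free biglycan. In WT mice *Kdr* (2.24) alone rose. Of 5 genes for the processing of core proteins none was a DEG in either Ang II response, because all were under the fold threshold. On the adjusted p in limma alone all 5 passed in *Plod1*-/- mice, 4 higher and *Tpst1* lower (-0.61), where 5408 of 12333 genes passed. In WT mice *Pcolce* (-0.50) and *Tpst2* (0.45) passed, where 4560 of 11994 genes did. *Bmp1*, the procollagen C-proteinase, which also cleaves the propeptide of biglycan, was higher in Ang II-treated *Plod1*-/- than WT mice (1.05), and *Pcolce* (1.45) and *Bmp1* (1.04) passed in the interaction. Between the saline-treated genotypes *Cd14* (-1.94) was the one gene of these lists that passed.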

How the data were processed

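RNA of the abdominal aorta of 20 mice, 5 in each of 4 groups, was sequenced, and groups and replicate numbers were taken from the labels. Per the study's methods, libraries were made with a TruSeq RNA kit, ribosomal RNA reads were removed, and genes were quantified with HISAT2, stringtie, cuffquant and cuffnorm. The submitters' processing notes name HISAT2 2.1.0, Bowtie2 2.2.3, HTSeq 0.6.0 and the build mm10, without their roles, and the labels' extraction protocol also describes array labelling. The authors deposited 1 FPKM value per gene and mouse for 43422 Ensembl genes, and which of these tools made and scaled the deposited values is not given in the sources used here. GENCODE M21 (GRCm38) gave symbols for 43226 of them. Depth is unknown in reads, so no detection limit is given, and the step between the lowest values puts relative depth between 0.903 and 1.089. Use of strand in counting is not stated, so reads of overlapping genes are uncertain.

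FPKM was transformed to log2(FPKM + 1). In each comparison, genes that reached 1 FPKM in 5 or more of the mice fitted entered limma 3.58.1 (R 4.3.3, with data.table in version 1.17.8) with eBayes and a variance trend, with two-sided tests. All 10 members passed this filter in each of the 5 comparisons. The count test that the study names needs read counts, so limma took its place. Ratios were compared with exact permutation tests over mice and adjusted over 8 tests. Tables and plots were made with Python 3.11.15, pandas 2.3.3, numpy 2.4.6 and matplotlib 3.10.9. The fit was run on simulated data with known changes, where genes were drawn independently and each had the same spread in every group. This does not test the fit under shifts shared by genes or spreads that differ between groups.

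The members, lists, tests and alternatives were chosen with earlier results of these data known. The genes named are the 10 members, up to 3 genes per comparison with the largest change among the DEGs of each other list, the 5 genes most like *Islr* and the 3 most like each other member, and *Plod1* and *Xist*. Further genes (*Tlr2*, *Cd14*, *Kdr*, *Bmp1*, *Ugdh*, *Cenpp*, *Scp2* and *Islr2* among them, where they fall outside this rule) were named after their values were seen. Alternatives were a pseudocount of 0.1, no filter, replicate number as a block, quantile normalization, mitochondrial genes left out, weights per mouse, all 4 groups in one fit, the adjusted p alone, the libraries with *Xist* RNA left out, and each mouse left out in turn. The distance of each Ang II-treated WT mouse from the saline mean was added after seeing the data. Promoter windows are from RefSeq (GRCm38.p6), and 8 of 10 members had one.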

Additional observations from a re-analysis of the deposited data

Results flagged for a closer look

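In 7 of the 52 sets of 5 mice tested, over the members, their sum and the ratios, 1 sample stood farther from the others than Dixon's 95% limit allows. Chance gives this in about 1 group in 20. The sets reuse the same 20 mice and the sum contains *Bgn*, so the 7 are not independent and cannot be set against that rate. Ang II-treated WT replicate 4 was the highest of its group for *Bgn* (1275 FPKM, next 752), *Podn* (20.8 FPKM, next 13.4), *Islr* (237 FPKM, next 152) and the sum of the 9 proteoglycan genes (2406 FPKM, next 1464). Ang II-treated *Plod1*-/- replicate 5 was the highest for *Aspn* (146 FPKM, next 50.8) and *Fmod* (58.0 FPKM, next 22.5). Saline-treated WT replicate 1 was the highest for *Fmod* (112 FPKM, next 80.3).

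The Ang II response differed between the genotypes by the interaction test for *Aspn* (1.36 on the log2 scale, limma adjusted p = 0.0353) and for *Prelp* (-1.89, adjusted p = 2.79e-04).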

How the results depend on the processing

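In *Plod1*-/- mice the count of proteoglycan genes called was 4 or 5 of 9 under each alternative that kept all mice in both groups. *Prelp*, *Ogn* and *Omd* passed in each, and in each fit that left out 1 mouse. In WT mice the count of 1 became 0 with no filter, 3 with weights per mouse, 4 on the adjusted p alone and 1 to 3 with 1 mouse left out. Between Ang II-treated genotypes the count of 3 became 1 with no filter, 5 with weights and 1 to 4 with 1 mouse left out. Under saline it was 0, and 0 to 1 with 1 mouse left out. In the interaction the count of 2 became 1 with no filter or without mitochondrial genes, and 1 to 4 with 1 mouse left out. The cause was not tested.

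Directions turned for values near 0. Between the saline-treated genotypes *Prelp* turned from 0.04 to -0.018 with weights, and *Bgn* to -0.0026 and *Aspn* to -0.073 without the *Xist* libraries. In the interaction *Dcn* turned from 0.10 to -0.017 without mitochondrial genes. With 1 mouse left out, *Fmod* ran from -0.689 to 0.086 between the Ang II-treated genotypes. Between the saline-treated ones *Bgn* ran from -0.0026 to 0.126, *Aspn* from -0.073 to 0.114 and *Prelp* from -0.066 to 0.166, and in the interaction *Dcn* ran from -0.095 to 0.252 and *Podn* from -0.064 to 0.289. No alternative changed a call of a ratio. With quantile normalization the median over all genes went from 0.12 to -0.03 between the Ang II-treated genotypes and from 0.12 to -0.01 in the interaction.

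With the replicate number as a block, 5, 1, 2, 0 and 2 members were called, in the order of the *Plod1*-/- response, the WT response, the genotypes under Ang II, under saline and the interaction, and *Omd* lost its call under Ang II (adjusted p = 0.0595). Deviations of same-numbered mice correlated from -0.37 to 0.43, and the labels give no pairing. On the adjusted p alone, 5408 of all genes passed in the *Plod1*-/- response against 1714, 4560 in WT mice against 1039, 3849 between the Ang II-treated genotypes against 1373 and 5017 in the interaction against 2129, since the fold threshold was dropped. With weights per mouse 2134 passed between the Ang II-treated genotypes. Between the saline-treated genotypes, 92 genes of all passed, 149 with a pseudocount of 0.1, 41 with no filter, 786 on the adjusted p alone, 57 in one fit of all groups, 60 without the *Xist* libraries and 38 to 104 with 1 mouse left out. Depth is unknown, so what low counts limit, as for *Omd* near 1 FPKM, cannot be given.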
